A study of Mus musculus with 6 samples.

Results

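Colony-stimulating factors and their receptors were examined in cultured mouse mammary tumour cells that had received extra miR-16. The genes are the ligands Csf1, Csf2 and Csf3 and the receptor chains Csf1r, Csf2ra, Csf2rb1, Csf2rb2 and Csf3r, and they were taken by gene name in the scanner files, with every probe of each gene. These are 8 of the 27962 gene names on the array, with 12 of its 41174 probes. Of these, 3 probes belong to ligands and 9 to receptors.

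The cells were primary cultures of C4HD, a hormone-dependent ductal mammary tumour of female BALB/c mice that first arose under medroxyprogesterone acetate, a synthetic progestin. The tumour is passed on by transplantation into mice that carry a depot of the same progestin, and the epithelial-enriched fraction was obtained by repeated sedimentation and plated in medium with steroid-stripped serum. All of this is shared by both groups. The tested cultures were transfected for 48 h with 30 nM pre-miR-16, a synthetic precursor of the microRNA miR-16 (3 cultures), and the control cultures with 30 nM pre-miR-Control, a scrambled precursor that forms no known mammalian microRNA (3 cultures). The design describes the 3 cultures of each group as biological replicates and does not say whether they came from different tumours. Each was hybridised to 1 single-colour Agilent array, and precision is limited by this small number of arrays. The question is what forced expression of miR-16 does to transcript levels in these ErbB-2 positive tumour cells. A limit of the model is that the enriched fraction is not a purified cell type.

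Colony-stimulating factors are secreted proteins that keep myeloid cells alive and drive them to divide and mature. CSF1 acts on macrophages through CSF1R, a receptor tyrosine kinase; CSF2 (GM-CSF) acts through a specific alpha chain, CSF2RA, paired with a shared beta chain that signals through JAK2 and STAT5; CSF3 (G-CSF) acts on granulocytes through CSF3R. Mammary tumour cells are known to secrete such factors, while the receptors are mainly found on the myeloid cells that infiltrate the tumour. Mice carry a second beta chain gene, Csf2rb2, next to the common one, and its product serves the interleukin-3 receptor.

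The mature sequence of mouse miR-16 is shown because it is the agent delivered; it is the RefSeq entry (GRCm38.p6), encoded at chr3:69009918-69009939 on the plus strand (Mir16-2) and at chr14:61631936-61631957 on the minus strand (Mir16-1). Capitals mark the seed, bases 2 to 8 from the 5′ end.
mmu-miR-16-5p: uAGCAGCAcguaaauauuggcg
Of the 12 probes, 0 contained a site complementary to the seed; the probes are 60 bases long, so this says nothing about the rest of the transcripts.

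A second pair of sequences is shown because it bears on how the beta chain probes can be read. Over all 66 pairs among the 12 probes, only the Csf2rb2 probe A_51_P146753 and the Csf2rb1 probe A_52_P52618 shared a long stretch, while the next longest shared segment had 12 bases with 10 identical. The lines give 30 bases of each, with capitals where both have the same base (27 of the 30). The Csf2rb2 stretch is bases 13 to 42 of its probe, which the files place at chr15:78365648-78365707 on the minus strand, and the Csf2rb1 stretch is bases 31 to 60 of its probe, at chr15:78433690-78433749 on the plus strand (mm7, the build the files name).
Csf2rb2: GCAGATCAAgTGTtCCTTGGTCTaTGTTCA
Csf2rb1: GCAGATCAAaTGTcCCTTGGTCTcTGTTCA
With this much shared sequence, the signals of these probes cannot be assigned to 1 of the paralogs with certainty.

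Throughout, a level is the log2 signal minus the log2 75th percentile of its array, and changes are differences of such levels, pre-miR-16 minus pre-miR-Control, with standard errors from limma. Adjusted p-values are Benjamini-Hochberg values over all 23828 probes that passed a filter on dim signal, and a probe is called at an adjusted p under 0.05. The 75th percentile signal lay between 736.1 and 910.5 units on the pre-miR-16 arrays and between 625.8 and 697.1 units on the pre-miR-Control arrays, and 57.23% to 63.99% of spots were well above background. The groups differed widely: 46.5% of the kept probes were called in either direction, 15.2% higher and 31.3% lower with pre-miR-16, with a median change of -0.19. Scaled on the 231 spike-in spots instead, the median change was 0.19, because relative to the 75th percentile the spike-in level was lower on the pre-miR-16 arrays (3.67, 3.58 and 3.31 on the log2 scale) than on the pre-miR-Control arrays (3.98, 3.89 and 3.84). Each direction given below for the colony-stimulating factor genes that passed the test was the same under either scaling.

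All 3 ligands rose with pre-miR-16, as did 3 receptor probes, those for Csf2ra, Csf2rb2 and 1 of the Csf2rb1 probes. No probe of the 8 genes was called lower; with array weights 4 were, and without pre-miR-16 replicate 2 there were 2. Of the 12 probes, 10 passed the filter, and 6 of these were called and higher with pre-miR-16, beside 15.2% of all kept probes. Csf2 and Csf2rb2 passed the filter through the pre-miR-16 cultures alone, and the other 4 called probes were above background on all 6 arrays. The groups did not overlap for 7 of the 10, beside 59.7% of all kept probes. The median change was 2.54 for the ligands and -0.32 for the 7 kept receptor probes, beside -0.19 for all kept probes. The receptor median counts each Csf1r probe and the second Csf2rb1 probe, so it does not rank receptor genes below ligands. At the kept probe of each receptor gene that was brightest over all 6 arrays, Csf1r changed by -0.51, Csf2ra by 4.77, Csf2rb1 by 4.05 and Csf2rb2 by 4.09. For Csf2rb1 this choice of probe rests on the rise itself. In pre-miR-Control cultures the second Csf2rb1 probe was brighter (mean level -2.74 against -4.76), and it changed by -0.32.

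**Figure D1:**
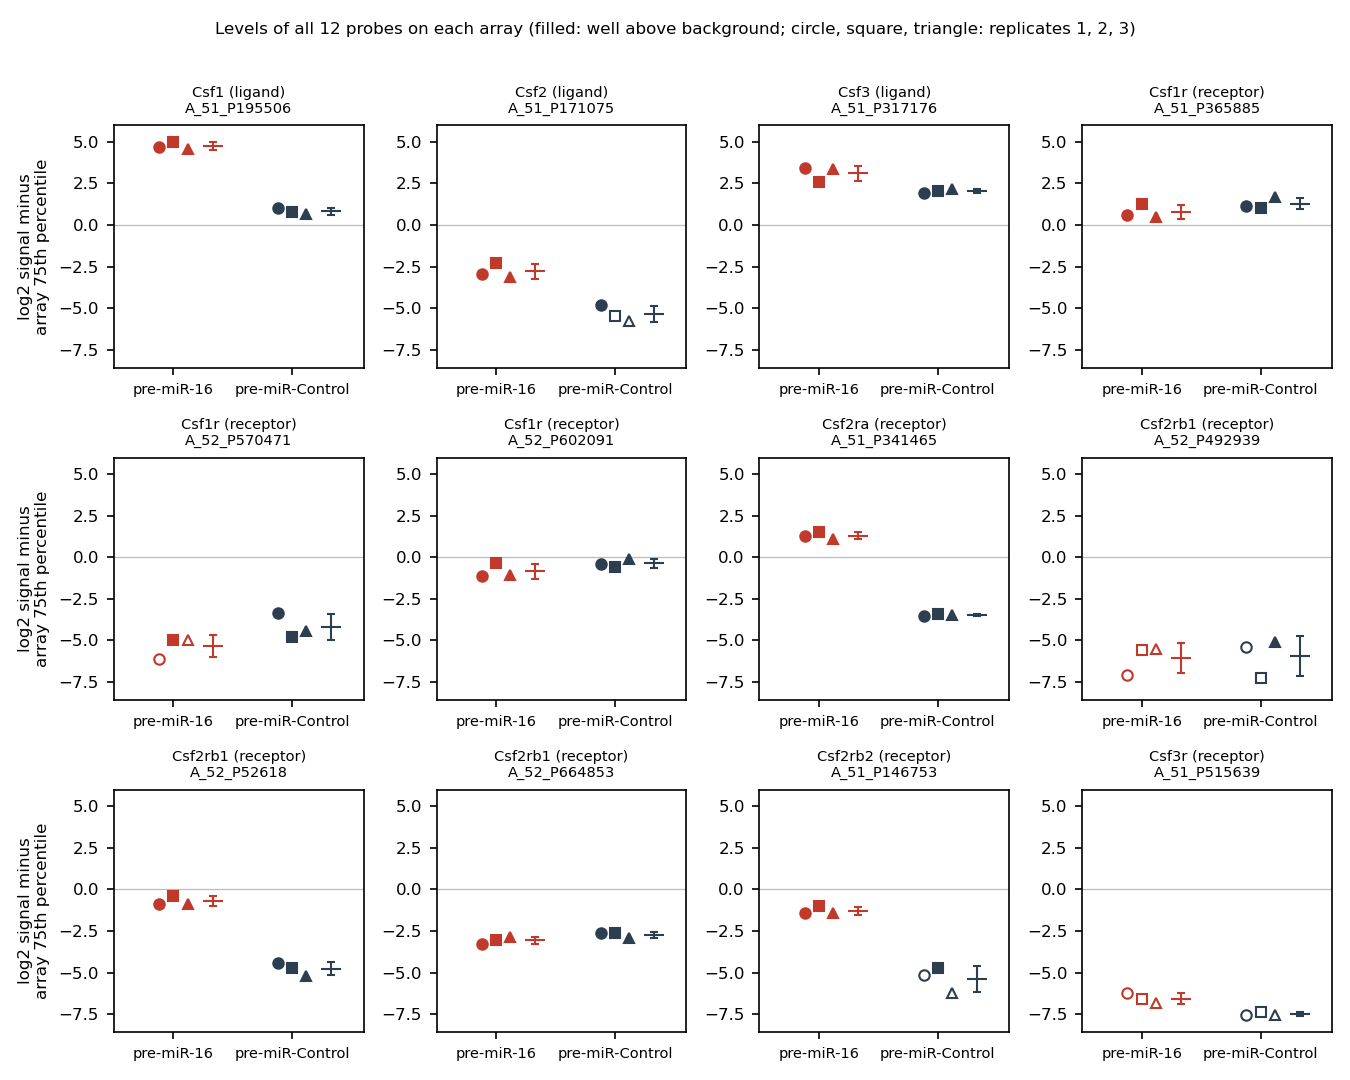
Log2 level relative to the array's 75th percentile (vertical axis) of each of the 12 probes on the 3 pre-miR-16 arrays (left, red) and the 3 pre-miR-Control arrays (right, dark), with mean and SD. Filled symbols mark arrays where at least 0.5 of the probe's spots were well above background. Csf1 lies between 4.58 and 4.99 in pre-miR-16 cultures and between 0.64 and 1.02 in pre-miR-Control cultures, while the Csf3r probe is open on all 6 arrays.

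Csf1, the macrophage growth factor, had the largest rise of the ligands. Its probe A_51_P195506, which the files place at chr3:107559703-107559762 on the minus strand (mm7), is printed 10 times on each array. Its level was 4.68, 4.99 and 4.58 in pre-miR-16 replicates 1, 2 and 3, against 1.02, 0.81 and 0.64 in pre-miR-Control replicates 1, 2 and 3. The 3 pre-miR-16 cultures were all far above the 3 control cultures, and each group was tight. In signal units the probe gave 19095, 23460 and 21847 in pre-miR-16 cultures, against 1270, 1138 and 1088 in pre-miR-Control cultures. The change was 3.93 ± 0.15 (SE, n = 3 arrays each; limma adjusted p = 1.6e-05), a 15.3-fold rise with a 95% interval of 3.56 to 4.30 on the log2 scale. Only 1.61% of kept probes changed by as much in this direction. The SD over the repeated spots of an array was at most 0.04 on the log2 scale, far below the change. Within slide 1 the change was 3.66, and within slide 2 it was 4.27.

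Csf2, which encodes GM-CSF, rose over a control signal close to background. Its probe A_51_P171075, placed at chr11:54204021-54204048 on the minus strand, also has 10 spots per array. All 10 spots were well above background on each pre-miR-16 array, against 9, 2 and 1 of 10 on pre-miR-Control arrays 1, 2 and 3. The levels were -2.95, -2.28 and -3.15 in pre-miR-16 cultures, against -4.79, -5.46 and -5.75 in pre-miR-Control cultures. The groups did not overlap, and control replicate 1 was the highest control. The change was 2.54 ± 0.32 (SE, n = 3; limma adjusted p = 0.00156), or 5.82-fold, with 1.85 within slide 1 and 3.32 within slide 2. The size rests on how background is handled. In the controls the processed signals were 22.6, 14.8 and 13.0 units, below the offset of 50 that normexp correction adds. With normexp correction the change was 0.88, and in the authors' normalized values it was 1.12. The call held under both.

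Csf3, which encodes G-CSF, was called higher. Its probe A_51_P317176 (chr11:98812339-98812398, plus strand) gave 3.42, 2.57 and 3.35 in pre-miR-16 cultures, against 1.94, 2.06 and 2.19 in pre-miR-Control cultures. Replicate 2 of the pre-miR-16 cultures was the lowest of its group and the nearest to the controls, without overlap. The change was 1.05 ± 0.24 (SE, n = 3; limma adjusted p = 0.0133), a 2.07-fold rise, and 9.91% of kept probes changed by as much in this direction. It was 1.48 within slide 1 and 0.45 within slide 2. With slide as a block it was 0.89 with an adjusted p of 0.0688, so this call was lost.

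The receptor of CSF1 was not called. Csf1r, the tyrosine kinase receptor, has 3 probes on chromosome 18, of which A_51_P365885 and A_52_P602091 lie 0.986 kb apart and A_52_P570471 lies 21.0 kb from the first. The brightest, A_51_P365885, gave 0.61, 1.25 and 0.47 in pre-miR-16 cultures, against 1.17, 1.04 and 1.67 in pre-miR-Control cultures. The groups overlapped, with pre-miR-16 replicate 2 within the control range. The change was -0.51 ± 0.26 (SE, n = 3; limma adjusted p = 0.146), with an interval of -1.14 to 0.11 under this scaling. Within slide 1 it was -0.56 and within slide 2 it was -0.11.

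A_52_P602091 gave -1.12, -0.32 and -1.07 in pre-miR-16 cultures, against -0.39, -0.60 and -0.09 in pre-miR-Control cultures, and its change was -0.48 ± 0.25 (limma adjusted p = 0.163). It followed the brightest probe from array to array, with pre-miR-16 replicate 2 again inside the control range. Without that replicate both probes were called lower, by -0.75 (adjusted p = 0.0311) for the brightest and -0.73 (adjusted p = 0.0164) for A_52_P602091. Scaled on the spike-in spots, the same changes were -0.13 and -0.09.

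The dimmest Csf1r probe, A_52_P570471, gave -6.13, -5.01 and -4.96 in pre-miR-16 cultures, where it cleared background on 1 of 3 arrays, against -3.35, -4.81 and -4.43 in pre-miR-Control cultures, where it did so on all 3. Its change of -1.17 ± 0.47 had an adjusted p of 0.0846 in limma. No Csf1r probe was called, and all 3 pointed the same way, under spike-in scaling too.

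Set side by side within each array, Csf1 and Csf1r moved apart. The log2 value of Csf1 minus that of the brightest Csf1r probe was 4.07, 3.75 and 4.11 in pre-miR-16 cultures, against -0.15, -0.23 and -1.03 in pre-miR-Control cultures. Levels of 2 different probes have no common scale, so the zero of this measure has no meaning, but its difference between the groups does. That difference was 4.45 ± 0.30 (SE, n = 3 arrays each), with all 3 pre-miR-16 arrays above all 3 controls. The exact two-sided permutation test gave p = 0.1, the smallest that 3 arrays against 3 allow. With the other Csf1r probes the difference was 4.41 ± 0.27 and 5.10 ± 0.52, and with the brightest probe it was 4.22 within slide 1 and 4.38 within slide 2. Because any scaling of an array cancels in it, it does not depend on the choice between the 75th percentile and the spike-in spots.

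**Figure D2:**
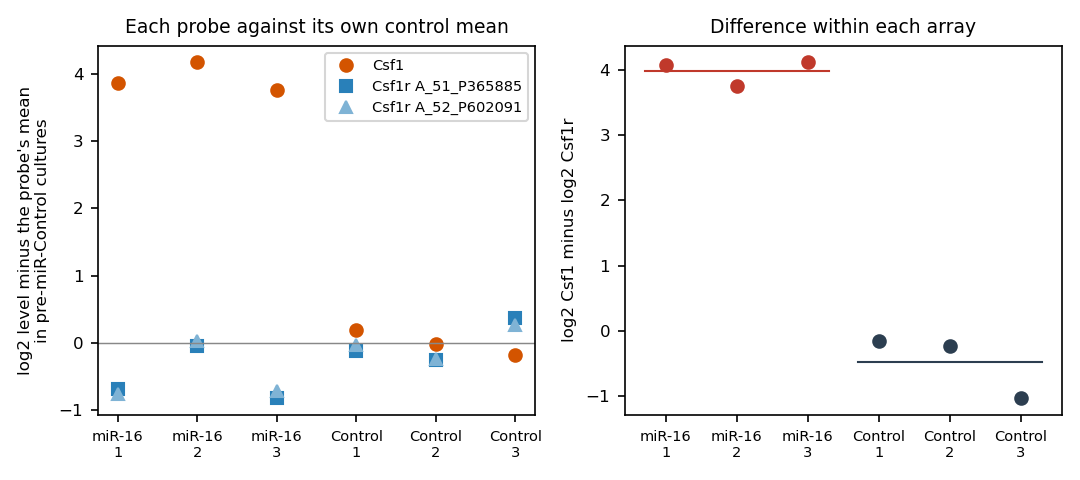
Left, the log2 level of Csf1 and of the 2 brighter Csf1r probes on each array (horizontal axis), minus the same probe's mean over the pre-miR-Control arrays. Right, log2 Csf1 minus log2 Csf1r (A_51_P365885) on each array, with a line at each group's mean; the 3 pre-miR-16 arrays lie between 3.75 and 4.11 and the 3 pre-miR-Control arrays between -1.03 and -0.15.

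For the GM-CSF receptor, the alpha chain and 1 probe of each beta chain gene rose. Csf2ra encodes the alpha chain that binds GM-CSF specifically, and its probe A_51_P341465 lies at chr19:61146986-61147045 on the minus strand. Its level was 1.26, 1.54 and 1.12 in pre-miR-16 cultures, against -3.51, -3.39 and -3.50 in pre-miR-Control cultures. The spread within each group was small beside the gap between them, and the probe was well above background on all 6 arrays. Signals were 1775, 2141 and 1974 units in pre-miR-16 cultures, against 55.1, 62.2 and 61.8 units in pre-miR-Control cultures. The change was 4.77 ± 0.13 (SE, n = 3; limma adjusted p = 1.22e-05), a 27.2-fold rise, and 99 of the 23828 kept probes rose more. With normexp correction it was 3.78, and within slides 1 and 2 it was 4.76 and 4.98.

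The beta chain gave 2 answers depending on the probe. Csf2rb1 is the name in the files for the common beta chain, whose current symbol is Csf2rb. Its probe A_52_P52618, designed on the transcript AK154286, gave -0.90, -0.37 and -0.88 in pre-miR-16 cultures, against -4.40, -4.70 and -5.19 in pre-miR-Control cultures. All 6 arrays were well above background and the groups were far apart. The change was 4.05 ± 0.24 (SE, n = 3; limma adjusted p = 7.53e-05), or 16.5-fold, and 2.29 with normexp correction. It was 3.49 within slide 1 and 4.58 within slide 2.

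A second Csf2rb1 probe, A_52_P664853 (chr15:78429378-78429640, plus strand), designed on NM_007780, gave -3.27, -3.06 and -2.85 in pre-miR-16 cultures, against -2.63, -2.65 and -2.94 in pre-miR-Control cultures. These groups overlapped, and the change of -0.32 ± 0.15 was not called (limma adjusted p = 0.121), with an interval of -0.68 to 0.04. Under spike-in scaling its change was 0.06. The remaining probe of the gene, A_52_P492939, passed the background test of the scanner software in 0 of 3 pre-miR-16 cultures and 1 of 3 pre-miR-Control cultures and was not tested. The probes lie 4.31 kb (the first and second) and 2.53 kb (the first and the remaining one) apart, and why they differ was not tested.

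Csf2rb2, the second beta chain gene of the mouse, rose like the probe with which it shares sequence. A_51_P146753 gave -1.39, -0.99 and -1.45 in pre-miR-16 cultures, against -5.15, -4.74 and -6.23 in pre-miR-Control cultures. Its signal cleared background in all 3 pre-miR-16 cultures and in 1 of 3 pre-miR-Control cultures, and the groups did not overlap. The change was 4.09 ± 0.38 (SE, n = 3; limma adjusted p = 0.000496), or 17.1-fold on the processed signal, and 1.95 with normexp correction. It was 3.76 within slide 1 and 4.49 within slide 2.

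Csf3r, the receptor of G-CSF, was not measurable. None of the 6 arrays had its probe A_51_P515639 above background, with signals of 10.0, 7.50 and 7.85 units in pre-miR-16 cultures, against 3.30, 3.99 and 3.74 units in pre-miR-Control cultures. It was therefore not tested, and no fold is given. The ligand Csf3 thus rose in cultures in which its receptor was not detectable by this probe.

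**Figure D3:**
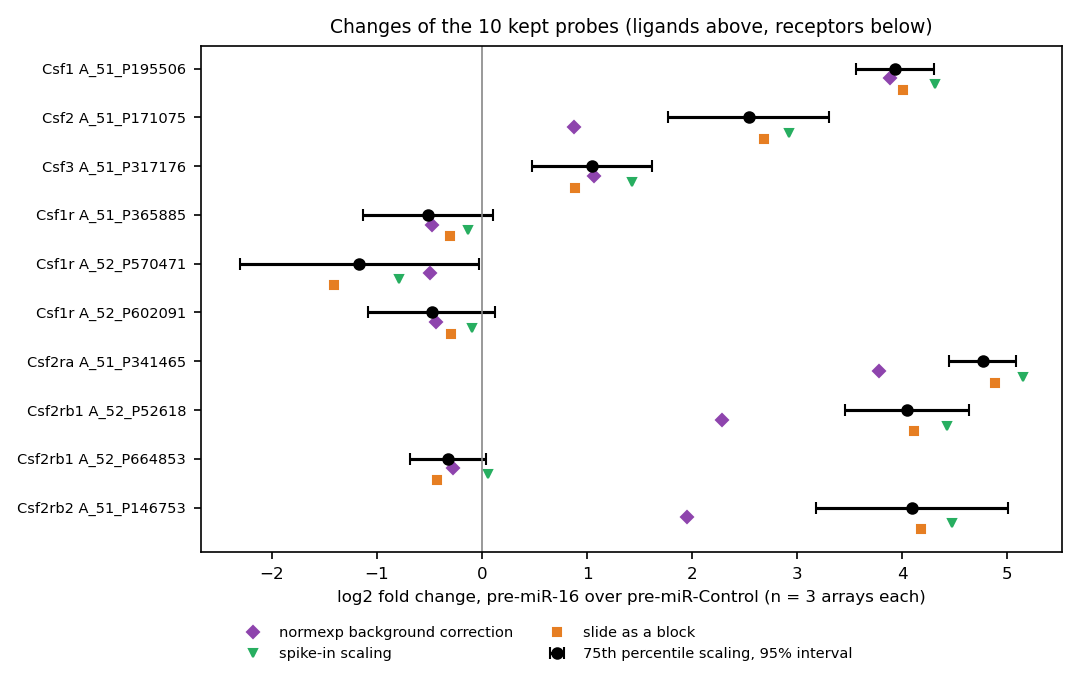
Log2 fold change, pre-miR-16 over pre-miR-Control (horizontal axis), of the 10 kept probes with 95% intervals from limma (black), and the same change after normexp background correction, spike-in scaling and with slide as a block (coloured symbols). Csf1 stays between 3.81 and 4.31 over all alternatives that were run, while the dimmer Csf2 runs from 0.88 to 2.92 and Csf2rb2 from 1.95 to 4.48.

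Compared as ligand against receptor, the 3 systems differed in pattern. For CSF1 the ligand rose and no receptor probe was called. For GM-CSF the ligand, the alpha chain and 1 probe of each beta chain gene rose, the alpha chain more than the ligand. The change of Csf2 minus that of Csf2ra was -2.23, and minus that of the called Csf2rb1 probe -1.51. Against the Csf2rb1 probe A_52_P664853, which was not called, it was 2.86, so the common beta chain gave no single answer. For G-CSF the ligand rose and the receptor could not be read. These differences of changes between ligand and receptor were not tested except for Csf1 against Csf1r, and the Csf2 values share the limit that its control signal is near background.

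The profile of each gene over the 6 arrays was set against every other gene at its brightest probe, as the root mean square difference of the centred log2 values. Closest to Csf1 were Bglap (0.0665), which encodes osteocalcin, Arhgdib (0.0699), Bicc1 (0.0768) and Rasa3 (0.0817). Closest to Csf2ra were Dnajb3 (0.0684), Dach2 (0.0710), Serpina3g (0.0789) and Fli1 (0.0946), a transcription factor of blood and endothelial cells. The Csf2rb1 probe that rose was nearest to Clec4n (0.10), a lectin receptor of macrophages, Gng2 (0.119), Scn3b (0.130) and Fcer1g (0.140), the signalling chain of Fc receptors. Csf2rb2 was nearest to Ctss (0.160), a lysosomal protease of antigen-presenting cells, Sirpa (0.186), Sv2b (0.199) and Rac2 (0.203), a GTPase of blood cells. Csf2 was nearest to Csgalnact1 (0.0725), Fxyd5 (0.106), Fermt3 (0.122) and Slc2a10 (0.145), and Csf3 to Dpysl2 (0.0675), Cd200 (0.0770), Lpcat3 (0.0960) and Il6ra (0.106). The brightest Csf1r probe had looser matches, Otud7a (0.135), Dapp1 (0.138), Lrrc75b (0.142) and Dennd2c (0.143), with changes between -0.60 and -0.48. With 6 arrays in 2 groups, a match mostly means a change of like size.

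The promoters of Csf1 and Csf2ra are shown because these are the ligand and the receptor with the largest rise. Each line is the 250 bases before the RefSeq start on the gene's own strand (GRCm38.p6), at chr3:107760470-107760719 and chr19:61228419-61228668, both on the minus strand. Capitals mark matches, on either strand, to 5 short patterns chosen after the letters had been seen: GGNNTTTCC (NF-kB), TGANTCA (AP-1), AGAGGAAG (PU.1), TTGCNNAA (C/EBP) and TGACGTCA (CRE).
Csf1: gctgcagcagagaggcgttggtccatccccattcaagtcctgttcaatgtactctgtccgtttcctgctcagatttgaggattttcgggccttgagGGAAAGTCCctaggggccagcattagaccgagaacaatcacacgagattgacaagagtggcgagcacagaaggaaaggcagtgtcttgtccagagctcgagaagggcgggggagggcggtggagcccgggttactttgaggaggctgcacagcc
Csf2ra: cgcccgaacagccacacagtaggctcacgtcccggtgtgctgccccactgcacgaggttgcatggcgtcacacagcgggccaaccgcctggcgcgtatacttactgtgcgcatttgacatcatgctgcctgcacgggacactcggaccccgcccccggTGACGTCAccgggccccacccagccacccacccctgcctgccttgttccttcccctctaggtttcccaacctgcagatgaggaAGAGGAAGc
The Csf1 match is to the NF-kB pattern, 154 bases before the start and on the opposite strand; 4.93% of 32851 RefSeq promoters of this length hold one. The Csf2ra matches are to the CRE pattern, 92 bases before the start (1.55% of promoters hold it), and to the PU.1 pattern, 9 bases before it (3.67%); they do not overlap. Of the other genes in the promoter table, Csf2 had a C/EBP match (held by 9.56% of promoters), Csf3r a PU.1 match and Csf2rb2 no match to the 5 patterns, and no window of these 5 genes matched AP-1 (6.75%). Csf3, Csf1r and the common beta chain were not looked up elsewhere. A match of letters is a description and not a binding site.

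Of 13 genes of other ligands and receptors of blood cell growth, 6 were measured at a kept probe; 2 rose, 2 fell and 2 were not called, beside 15.8% of all genes that rose and 32.4% that fell at their brightest probe (48.2% in either direction). The median change was -0.02, and with slide as a block 1 rose and 0 fell. Il34, which encodes the second ligand of CSF1R, gave 1.80, -0.44 and 1.86 in pre-miR-16 cultures, against -1.47, -1.47 and -1.20 in pre-miR-Control cultures, and rose by 2.45 ± 0.61 (limma adjusted p = 0.0185). Its pre-miR-16 replicate 2 was far below the other pre-miR-16 cultures, though above every control. Il3ra, the interleukin-3 receptor alpha chain that shares the beta chain with Csf2ra, rose by 1.11 (adjusted p = 0.00189). Flt3l, the ligand of FLT3, changed by -0.63 and Epor, the erythropoietin receptor, by -0.84, both called, but under spike-in scaling no gene of the list fell. Kitl (0.16) and Thpo (-0.20) were not called.

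Of 26 measured genes of kinases and adaptors below the receptors, 5 rose, 6 fell and 15 were not called, with a median of -0.06; over all genes 15.8% rose and 32.4% fell. Scaled on the spike-in spots, 7 of them rose and none fell, and blocked by slide 3 rose and 2 fell. Tyrobp, an adaptor of myeloid receptors, rose by 5.21 ± 0.62 (limma adjusted p = 0.0013) and by 3.62 with normexp correction, with 2 of 3 control arrays above background. Pim1, a kinase gene induced by cytokine signals, rose by 1.10, and Grb2, an adaptor of receptor tyrosine kinases, fell by 0.61 (adjusted p = 0.0044). Jak2, chosen after its values were seen as the kinase bound to the beta chain, changed by -0.17 ± 0.15 and was not called (adjusted p = 0.364); Stat5a and Stat5b, picked in the same way, changed by -0.45 each (adjusted p = 0.0328 and 0.0499).

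Of 9 measured feedback inhibitors of cytokine signalling, 5 rose, 1 fell and 3 were not called, beside 15.8% and 32.4% of all genes, with a median of 0.62. Of the 8 above background on all 6 arrays, 4 rose and 1 fell, and blocked by slide 4 of the list rose and 0 fell. Inpp5d, the phosphatase SHIP1 of blood cells, stayed at background on all 3 pre-miR-Control arrays and was at least 8.26-fold higher with pre-miR-16 (adjusted p = 0.000188). Socs1 rose by 1.61 ± 0.20 (limma adjusted p = 0.00153), Dok1 by 1.27 and Socs3 by 0.62. The gene that fell was Cish, a STAT5 target, with a change of -0.76 (adjusted p = 0.0279), named after its value was seen, and it was not called under spike-in scaling. Ptpn6 (-0.21), Ptpn11 (-0.20) and Dok2 (-0.07) were not called.

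Of the transcription factors known to act on myeloid receptor genes, 6 of 10 measured rose, 2 fell and 2 were not called, beside 15.8% and 32.4% of all genes, with a median of 1.08. Of the 8 above background on all 6 arrays, 4 rose and 2 fell. Egr2, induced during macrophage differentiation, rose by 2.71 ± 0.11 (limma adjusted p = 1.57e-05) and Cebpd by 1.77 ± 0.23. Irf8, needed for monocyte development, cleared background on 1 of 3 control arrays, so its size rests on how background is handled: 4.48 ± 0.66, and 2.40 with normexp correction. Runx1 (-0.69) and Klf4 (-0.50) fell, though not under spike-in scaling, and Maf (-0.36) and Egr1 (0.59) were not called. Spi1, which encodes PU.1 and was singled out after its values were seen, cleared background in 1 of 3 pre-miR-16 cultures and 0 of 3 pre-miR-Control cultures and was not tested.

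Of 5 measured cytokines known to induce colony-stimulating factors, 3 rose, 1 fell and 1 was not called, beside 15.8% and 32.4% of all genes. Their median was 2.32, and 1.03 with normexp correction. Il1b gave 0.61, 1.21 and 0.31 in pre-miR-16 cultures, against -3.89, -3.79 and -4.71 in pre-miR-Control cultures, a change of 4.84 ± 0.32 (limma adjusted p = 0.000115). Il6, above background on 2 of 3 control arrays, rose by 4.33 ± 0.18 (adjusted p = 1.84e-05) and Il1a by 2.32 ± 0.31 (adjusted p = 0.00198); with normexp correction the changes were 2.39 and 1.03. Tnf, a classical inducer, gave 1.30, 2.22 and 1.39 in pre-miR-16 cultures, against 1.56, 1.51 and 1.64 in pre-miR-Control cultures; the groups overlapped and it was not called (change 0.07 ± 0.25, adjusted p = 0.845). Il33 changed by -1.30 (adjusted p = 0.0373), a call lost under spike-in scaling.

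Genes of NF-kB, AP-1 and NFAT factors were examined next. Of 13 measured genes of such factors, 3 rose, 4 fell and 6 were not called, beside 15.8% and 32.4% of all genes, with a median of -0.13. Scaled on the spike-in spots, 5 of them rose and none fell, and blocked by slide 2 rose and 1 fell. Junb rose by 0.97 ± 0.21 (limma adjusted p = 0.0118), Fosl1 by 0.92 and Fos by 0.86, while Fosl2 fell by 0.45. The 13 genes include the NFAT genes Nfatc1, which fell (-0.68, limma adjusted p = 0.0331), and Nfatc2, which was not called.

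**Figure D4:**
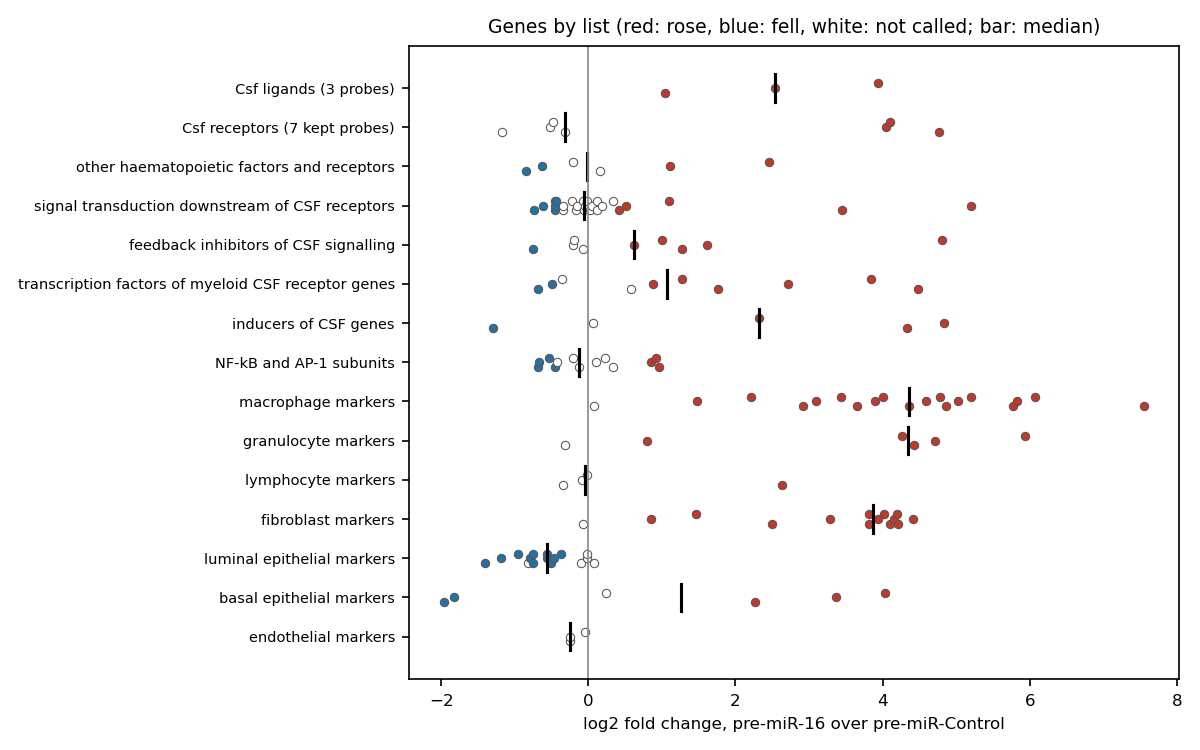
Log2 fold change, pre-miR-16 over pre-miR-Control (horizontal axis), of each measured gene, by list, with the probes of the colony-stimulating factors and their receptors in the first 2 lines. The line of NF-kB and AP-1 subunits also holds Nfatc1 and Nfatc2. Red genes rose, blue genes fell, white genes were not called, and the bar is the median of each list with every gene at its fitted value. For the macrophage markers it stands at 4.35, and it would be 3.63 with the 5 genes at background on every control array set to their lower bounds.

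Markers of myeloid cells moved with these changes. Of 19 measured macrophage markers, 18 rose, 0 fell and 1 was not called, beside 15.8% of all genes that rose. Many passed the filter through the pre-miR-16 cultures: 7 were above background on all 6 arrays, of which 6 rose. The median of the 19 was 4.35, or 3.63 with the 5 genes at background on every control array set to their lower bounds. With normexp correction 17 rose and the median was 2.24. Adgre1, which encodes F4/80 and cleared background on 2 of 3 control arrays, rose by 7.55 ± 0.35 (limma adjusted p = 2.68e-05) and by 5.70 with normexp correction, Mpeg1 by 5.03 ± 0.31 (adjusted p = 8.69e-05), and Fcer1g rose too (adjusted p = 6.53e-05). Ptprc, which encodes CD45 and marks blood cells in general, stayed at background on all 3 pre-miR-Control arrays and was at least 12.4-fold higher with pre-miR-16; Laptm5, Mrc1, Cx3cr1 and Mertk were also not above background on any control array. Aif1 was not called (0.08). The summed level of the list, in units of the array's 75th percentile, was 253.0, 275.2 and 224.3 in pre-miR-16 cultures, against 22.5, 20.9 and 15.5 in pre-miR-Control cultures. Most of it was Lyz2, the lysozyme gene; without Lyz2 the sum was 59.7, 51.6 and 55.6 in pre-miR-16 cultures, against 13.6, 12.3 and 11.7 in pre-miR-Control cultures.

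The rises of Csf2ra, Csf2rb2 and the Csf2rb1 probe thus stood beside a rise of 18 of 19 macrophage markers, 12 of these 18 not above background on every array, and so did those of the ligands, while Csf1r, also a macrophage gene, was not called. The part of these markers in the results was not tested. In such bulk RNA, more cells of a type and more RNA per cell cannot be told apart.

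Of 12 granulocyte markers on the array 6 were measured, and 5 of these rose, beside 15.8% of all genes; 4 were above background on all 6 arrays, of which 3 rose. Blocked by slide 3 of the 6 rose. The median was 4.34, and 2.62 with normexp correction. Mmp9, above background on every array, rose by 4.42, and by 2.87 with normexp correction. Mmp8 and Fpr1 rose too, with 2 and 1 of 3 control arrays above background; their changes were 4.71 and 5.94, and 2.37 and 3.11 with normexp correction. Mmp9 and Fpr1 are also made by macrophages. S100a8 gave 3.49, -0.35 and 3.95 in pre-miR-16 cultures, against -2.15, -1.81 and -1.75 in pre-miR-Control cultures, and rose by 4.26 ± 1.09 (limma adjusted p = 0.0204), with pre-miR-16 replicate 2 lowest, as for Csf3 and Il34. Mpo, a neutrophil granule enzyme, was not called (-0.32). The summed level was 13.9, 4.41 and 18.1 in pre-miR-16 cultures, against 0.60, 0.68 and 0.52 in pre-miR-Control cultures.

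Fibroblast markers, of which 14 were measured, rose in 13, beside 15.8% of all genes, with a median of 3.87; 12 were above background on all 6 arrays, of which 11 rose. Col1a1, Col1a2 and Col5a1 rose by 3.94, 4.16 and 4.10 (limma adjusted p = 1.24e-05 each), close to the 3.93 of Csf1, which fibroblasts are known to make, and Pdgfrb rose by 4.21. Dcn was not called (-0.07). The summed level was 849.6, 893.7 and 697.5 in pre-miR-16 cultures, against 489.0, 417.4 and 457.7 in pre-miR-Control cultures. Without Dcn it was 412.3, 492.1 and 361.2 in pre-miR-16 cultures, against 45.3, 41.2 and 48.0 in pre-miR-Control cultures, and the part of these genes in the Csf1 result was not tested.

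The epithelial label was checked against luminal markers in both groups: each of the 16 luminal markers cleared background on every array. Of these, 11 fell, 0 rose and 5 were not called, beside 32.4% of all genes that fell, with a median of -0.56. Under spike-in scaling 3 fell, and blocked by slide 7 did. Krt8 changed by -1.19 ± 0.11 (limma adjusted p = 0.00048), Krt18 by -0.95, and Epcam and Cdh1 by -0.76 each. The summed level was 932.3, 762.5 and 879.2 in pre-miR-16 cultures, against 1417, 1338 and 1269 in pre-miR-Control cultures.

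Among 6 measured basal markers, Acta2 (3.36), Cnn1 (4.04) and Myh11 rose, Krt14 (-1.95) and Krt17 (-1.83) fell and Krt5 (0.24) was not called. Over all genes, 15.8% rose and 32.4% fell. The summed level was 315.7, 375.7 and 261.0 in pre-miR-16 cultures, against 137.6, 149.6 and 115.3 in pre-miR-Control cultures. This higher sum rested on Acta2. Without Acta2 it was 99.0, 103.4 and 92.2 in pre-miR-16 cultures, against 114.1, 125.7 and 99.0 in pre-miR-Control cultures. Of 4 measured lymphocyte markers Cd79b, above background on 1 of 3 control arrays, was called higher (limma adjusted p = 0.00939; 0.40 with normexp correction), while Cd3e (-0.08) and Cd4 (-0.02) were among those not called; the summed level was 0.21, 0.25 and 0.24 in pre-miR-16 cultures, against 0.22, 0.18 and 0.20 in pre-miR-Control cultures. Of 9 endothelial markers on the array, only Flt1, Vwf and Esam were measured, and none was called. Pecam1, Cdh5, Kdr, Tek, Tie1 and Emcn did not pass the filter. The summed levels were 25.7, 14.7 and 26.4 in pre-miR-16 cultures, against 25.2, 22.3 and 22.3 in pre-miR-Control cultures. Most of this was Vwf. Without Vwf the sum was 8.48, 4.71 and 6.71 in pre-miR-16 cultures, against 8.41, 6.94 and 7.71 in pre-miR-Control cultures.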

How the data were processed

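The study hybridised Cy3-labelled RNA of 3 pre-miR-16 and 3 pre-miR-Control cultures to single-colour arrays. The deposited scanner files hold spot intensity values from Agilent Feature Extraction 9.5.3.1, background-subtracted and detrended within each array but not normalized between arrays, per the file headers. The deposited series matrix holds log2 values from the authors; how they were normalized is not stated in the labels, and column medians run from 6.79 to 6.81. There, pre-miR-16 replicate 1 tracks the scanner file of replicate 2 more closely than its own (Spearman 0.965 against 0.946), and replicate 2 that of replicate 1 (0.970 against 0.944), which leaves group comparisons as they are.

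Groups were taken from the labels. Outlier spots (74 to 113 per array) were left out, 0 spots were saturated, spots of a probe were averaged, and log2 values were centred on the 75th percentile of the array. The filter asked for 0.5 or more of a probe's spots to clear background on all 3 arrays of either group; 4 probes with a missing array were dropped. All 23828 kept probes were fitted with limma 3.58.1 (lmFit, eBayes; R 4.3.3, version 1.17.8 of data.table) without covariates. Genes in lists stand at their brightest kept probe by the mean over all 6 arrays (16703 genes in all), so a rise can itself favour a probe. Symbols came from RefSeq accessions for 22951 probes, from a current symbol for 6659 and from the files for 11564. A bound on a fold sets the brighter group's mean against, per array, the higher of the dimmest signal well above background and the probe's own signal. List medians at such bounds, counts over genes above background on all 6 arrays and sums without the brightest gene were added after the data were seen.

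Genes named are all probes of the 8 genes, the 4 genes of smallest p among the called in each list, all uncalled genes of a list where there were at most 3, and the 4 nearest profiles; a few of the genes so chosen are not reported here, though list counts include them. Members and lists were chosen with earlier results of these data known. Slide 1 held replicate 1 of each group, slide 2 pre-miR-16 replicate 2 and pre-miR-Control replicates 2 and 3, and slide 3 pre-miR-16 replicate 3, each scanned in its own session. On simulated data for this comparison (23828 probes, 50 changed per size) 2%, 52%, 80% and 96% of log2 changes of 0.5, 1, 2 and 4 were called, with 6 false calls. A far smaller share of probes changed there than the 46.5% called in the data, and the adjusted p-values depend on that share. These rates therefore cannot say how often a change of a given size is called here. The alternatives were other normalizations, background corrections, filters, variance models, blocks and thresholds, and each array left out.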

Additional observations from a re-analysis of the deposited data

How the results depend on the processing

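Of 195 recomputed values of single probes, 182 kept their call, 13 changed and none of the calls turned direction. The 6 probes that rose kept their rise under every alternative that kept them, except Csf3, whose call was lost in the fit blocked by slide (adjusted p = 0.0688) and at the stricter threshold of 0.01. Csf2 and Csf2rb2 drop out when all 6 arrays must be above background, and without any filter a seventh probe, that of Csf3r, was called higher although no array had it above background. The count of probes of these genes called lower, 0 as reported, was 1 with quantile normalization, 1 with median centring, 2 with normexp, 1 with the authors' matrix values and 4 with array weights, which called 10 probes in all; leaving out an array gave 0 to 2, with 2 without pre-miR-16 replicate 2. The dim Csf1r probe A_52_P570471 was called under quantile normalization (-1.21), median centring (-1.26), normexp (-0.50) and array weights (-1.30), the other Csf1r probes under array weights (-0.62 and -0.63), and the Csf2rb1 probe A_52_P664853 under normexp (-0.28), matrix values (-0.24) and array weights (-0.42). Csf1 minus Csf1r stayed between 4.17 and 4.604. Over all probes, 6558 were called with spike-in scaling (1410 lower) and 6321 at an adjusted p under 0.01 (3849 lower), beside 11088 (7464 lower). Leaving out an array gave 7530 to 12410 calls, with 4747 to 7964 lower, the lowest of these without pre-miR-Control replicate 2. Rises made up 32.7% of calls as reported and 78.5% with spike-in scaling. Same-numbered arrays did not deviate together (correlations of -0.0866, -0.0423 and -0.00233), and different-numbered arrays gave correlations between -0.0566 and 0.0897. With 3 arrays per group, these values cannot settle whether the numbers pair the samples. With replicate number as a block 8726 probes were called, 3142 higher and 5584 lower, and 6 of these genes' probes, all higher. Slide as a block moved 10 of 26 list counts by over 1.5 times, spike-in scaling 8 and normexp 1. The causes of these changes were not tested. Signals near background limit Csf2, Csf2rb2 and the dim Csf1r probe. Low control signals (29.7, 25.1 and 19.0 units) also limit the size of the rise of the Csf2rb1 probe A_52_P52618, which ran from 2.29 to 4.43.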
